A study of Rattus norvegicus with 8 samples.

Results

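The mRNAs of cytosolic ribosomal proteins were measured in BRL-3A, an established cell line from rat liver, on Agilent whole-genome expression arrays. The members were all non-control probes whose gene name in the scanner files begins with Rpl, Rps or Rplp followed by a number, without the S6 kinases (names beginning Rps6k). This rule used names only and no measured value. It took 131 probes with 86 names, of 41012 non-control probes in all, and left out Rpsa, a small-subunit protein whose name it does not reach and which is given apart. All 131 probes passed the filter on dim probes, so no member was lost to it. Of the 86 names, 43 stood for proteins of the large subunit, 30 for proteins of the small subunit, 3 for proteins of the stalk and 10 for paralogs or pseudogenes.

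Both groups held BRL-3A cells collected 48 h after transfection with lipofectamine 2000. The 4 siRNA arrays carried RNA of cells that had received siRNA to lnc19959.2, a long noncoding RNA, and the 4 NC arrays carried RNA of cells labelled NC, which the labels do not spell out. The comparison asked how transcripts differed after transfection with this siRNA. No gene name on the array refers to lnc19959.2, so its own level was not checked here, and the labels name a single siRNA.

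A cytosolic ribosome is built from a small subunit, which reads the mRNA, and a large subunit, which joins amino acids. Both hold ribosomal RNA and many proteins, most of them needed in equal number. The proteins are made in the cytosol, and most are imported into the nucleolus and assembled there with ribosomal RNA. Their mRNAs are among the most abundant of a growing cell and many begin with a run of pyrimidines, the 5′ terminal oligopyrimidine or TOP motif, through which the kinase mTOR and the protein Larp1 control their translation. Liver cells, which secrete much protein, keep a large stock of ribosomes.

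The 75th percentile of the processed intensity was 289 to 323 on siRNA arrays and 246 to 261 on NC arrays, between 55.1% and 58.9% of probes lay well above background on siRNA arrays and between 56.8% and 63.8% on NC arrays, and log2 signals correlated at r = 0.987 to 0.993 within groups and at 0.946 to 0.962 between groups. All siRNA arrays lay on 1 slide in 1 scan and all NC arrays on another, so slide and group cannot be told apart. Of 19 hepatocyte markers, all on the array, 9 passed the filter on dim probes and count as measured. The defining secreted proteins Alb, Ttr, Tf, Fga, Serpina1 and Ahsg were on the array but did not pass it. Of 14 markers of fibroblasts and stellate cells, 13 were on the array and 10 were measured. The summed level of the hepatocyte markers measured was 3.23 to 3.58 on siRNA arrays and 2.19 to 2.40 on NC arrays. However, 3 were called higher, with Cyp2e1 at a fold of 4.94, and 4 lower, and the median fold of the 9 was -0.42. Among the lower were Apoa1 (-4.44) and Krt18 (-3.19), each well above background on 1 of 4 siRNA arrays. The summed level of the fibroblast and stellate cell markers was 8.46 to 8.53 on siRNA arrays and 8.20 to 8.35 on NC arrays, with 5 called higher and 1 lower. For the markers of endothelium (5 of 7 measured) the sum was 2.21 to 2.65 on siRNA and 1.23 to 1.65 on NC arrays, with Kdr (1.65) and 2 others higher, and Vwf (-4.77) and Tek (-2.26) lower and well above background on 0 of 4 siRNA arrays. For those of cholangiocytes and epithelium (3 of 6) it was 2.18 to 2.37 on siRNA and 1.17 to 1.33 on NC arrays, with Krt7 (1.76) higher, and Spp1 (-0.45) and Sox9 (well above background on 1 of 4 siRNA arrays) lower. For those of leukocytes (2 of 8) it was 2.45 to 2.73 on siRNA and 2.77 to 2.95 on NC arrays, with 1 called lower. The part of these shifts in the results below was not tested.

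Relative to the 75th percentile of each array, most ribosomal protein mRNAs differed little between siRNA and NC arrays. Levels are log2 processed intensities minus the 75th percentile of the array, and differences between groups are log2 folds, siRNA over NC, with the standard error (SE) of limma's fit. A probe was called where the p-value of limma's moderated test, adjusted by Benjamini-Hochberg over all 24853 kept probes, was under 0.05. Of the 131 member probes, 39 were called higher in siRNA, 19 were called lower and 73 were not called. Among all kept probes 61.6% were called, 29.8% as higher and 31.9% as lower. The share of members called higher, 29.8%, was that of all probes, and the share called lower, 14.5%, was below it. The groups did not overlap for 34 of the 39 probes called higher and for 17 of the 19 called lower. The same was not counted over all kept probes, so these counts do not set the members apart. In bulk RNA like this, fewer cells expressing a gene and less RNA per cell cannot be told apart.

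On this scale the differences were small. Within 0.5 of 0 on the log2 scale lay 123 member probes (93.9%), against 64.0% of all kept probes. The median log2 fold was 0.07 over the member probes and -0.03 over all kept probes. The interquartile range of the members ran from -0.10 to 0.18 and that of all kept probes from -0.43 to 0.28. Members were mostly bright. Among probes with a mean level above 6, the 107 member probes had a median fold of 0.07, with 29.0% called higher and 10.3% lower, and the 520 other probes had a median of 0.08, with 36.2% called higher and 14.6% lower. At this brightness 98.1% of the members and 91.0% of the other probes lay within 0.5 of 0.

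Both the direction and the size of this shift depended on how the arrays were scaled. Scaling to the median of each array or to the 7 spike-in probes moved the median fold of all kept probes by 0.30 and 0.53. The median of the members was then 0.37 and 0.60, and 100 and 116 of them were called higher. Measured against the median of all kept probes, the members stood higher by the same amount under each of these constant scalings. Under cyclic loess, which removes trends with brightness, the median of the members was -0.04 against -0.01 for all kept probes, and 23 members were called higher and 38 lower. Under normexp background correction the median was 0.36 against -0.18, with 2 members called higher and 5 lower. The direction and size for the group as a whole were therefore not the same under every scaling tried. Folds of single members below are relative to the 75th percentile.

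**Figure D1:**
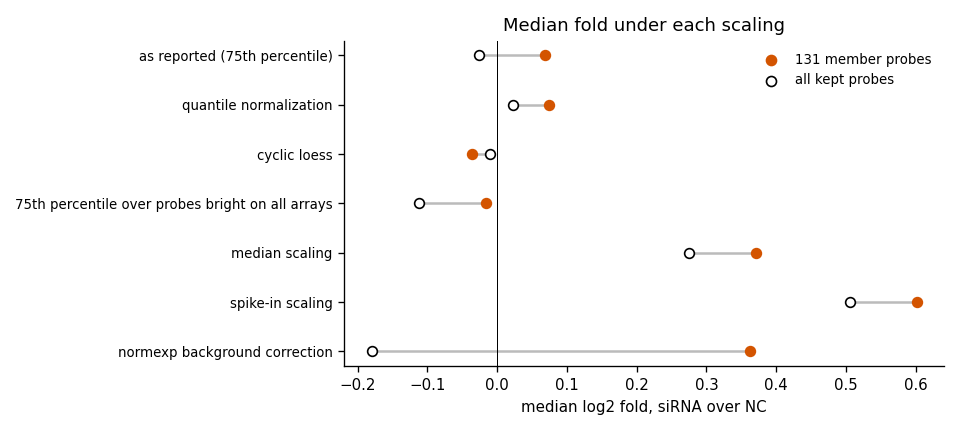
Median log2 fold, siRNA over NC, under 7 ways of scaling the arrays (rows), for the 131 member probes (filled dots) and all kept probes (open dots). The members lie above all kept probes in each row except cyclic loess, where their median is -0.04 and that of all kept probes -0.01.

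The arrays of a group differed among themselves by an amount similar to the reported median fold of 0.07. Relative to each probe's NC mean, the median of the members was 0.13, 0.08, 0.10 and -0.01 on siRNA arrays 1 to 4 and 0.05, 0.03, -0.01 and -0.05 on NC arrays 1 to 4. The fourth siRNA array thus lay among the NC arrays. Without that array 52 member probes were called higher and 19 lower, and over the 8 arrays left out in turn these counts ran from 27 to 52 higher and from 14 to 25 lower.

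Taking the brightest probe of each name, 25 of the 86 names were called higher in siRNA and 9 lower, against 36.2% higher and 28.8% lower among all 10812 genes measured. Proteins of the large subunit counted 14 higher, 3 lower and 26 not called, with a median fold of 0.08. Proteins of the small subunit counted 9 higher, 4 lower and 17 not called, with a median fold of 0.07. The subunits were not tested against each other. Only Rpl3l, Rps26 and Rpl13a lay beyond 0.5 in either direction.

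**Figure D2:**
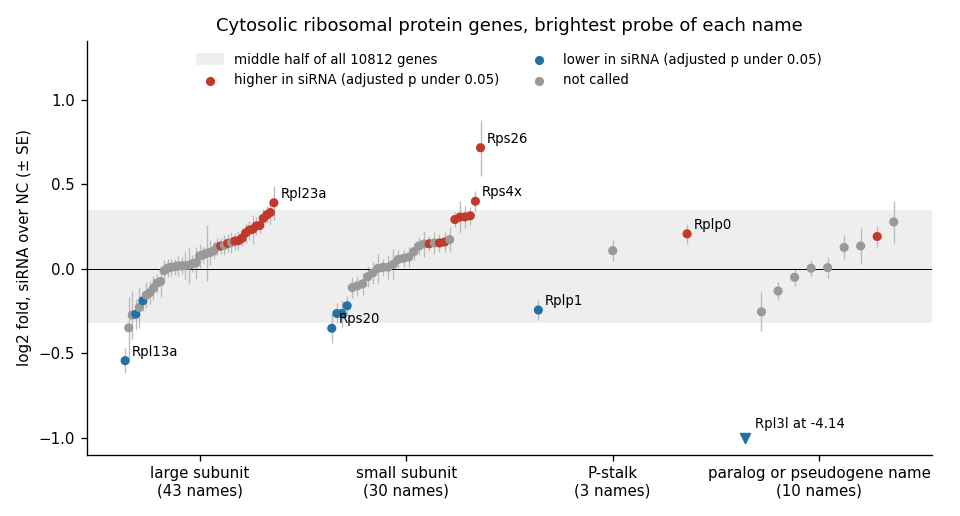
Log2 fold, siRNA over NC, of the brightest probe of each of the 86 names, sorted within each class, with bars for the SE of the fit and the grey band for the interquartile range of all 10812 genes. Nearly all points lie inside the band, and Rpl3l, drawn as a triangle at the lower edge without its SE, lies at -4.14.

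Rps26, a small-subunit protein at the channel through which the mRNA leaves, had the highest fold. Its levels were 3.86, 3.53, 3.19 and 3.50 on siRNA arrays and 2.98, 3.03, 2.56 and 2.64 on NC arrays, and its log2 fold was 0.72 ± 0.16 (SE, limma adjusted p = 0.0062). All 4 siRNA arrays lay above all 4 NC arrays, although both groups spread widely. Its probe is poor in G and C, with 16 of 60 bases. The call held under each scaling, filter and left-out array tried.

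Next came Rps4x, the X-linked form of a small-subunit protein, with levels of 6.65, 6.74, 6.75 and 6.60 on siRNA arrays and 6.39, 6.31, 6.21 and 6.24 on NC arrays. The groups did not overlap, and the fold was 0.40 ± 0.06 (SE, limma adjusted p = 0.00077). Rpl23a, which sits beside the tunnel through which the new peptide leaves, had levels of 6.86, 6.76, 6.92 and 6.48 on siRNA arrays and 6.48, 6.33, 6.36 and 6.29 on NC arrays. Its lowest siRNA array touched the highest NC array, and the fold was 0.39 ± 0.10 (limma adjusted p = 0.0107).

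Rpl36a, a large-subunit protein near the exit site of the tRNA, rose by 0.33 ± 0.07 (SE, limma adjusted p = 0.0032). Rpl3, which reaches towards the catalytic centre of the large subunit, had levels of 6.35 to 6.43 on siRNA arrays and 6.02 to 6.18 on NC arrays, with a fold of 0.32. Rps13, of the small subunit, had a fold of 0.31, with no overlap between groups. Rps21 also had a fold of 0.31, but one NC array (7.95) lay within the siRNA range of 7.86 to 8.10, and its adjusted p was 0.059 to 0.064 when any of 5 single arrays was left out. Under normexp each of these except Rps26 kept its direction and lost its call.

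Among the genes lower in siRNA, Rpl13a had the largest fall of any subunit name at its brightest probe. It is a large-subunit protein that in human monocytes is also released to silence inflammatory mRNAs. Its levels were 7.85, 7.53, 7.74 and 7.74 on siRNA arrays and 8.24, 8.31, 8.28 and 8.20 on NC arrays. The groups stood well apart, with a log2 fold of -0.54 ± 0.07 (SE, limma adjusted p = 0.000399), and the fold was negative under every scaling, though not called with the spike-in probes (-0.01) or under normexp (-0.25).

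Smaller falls were called in several proteins of the small subunit. Rps20, a protein of its head, had levels of 8.69, 8.59, 8.56 and 8.31 on siRNA arrays and 8.96, 8.91, 8.91 and 8.79 on NC arrays, a fold of -0.35 ± 0.09 (SE, limma adjusted p = 0.0083) without overlap. Rps2, at the entry of the mRNA channel, fell by 0.26 at its brightest probe, and 2 of its 4 probes were called. Without the second NC array its brightest probe had an adjusted p of 0.0507.

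Rps6, the substrate of the S6 kinases, had levels of 9.01, 8.88, 8.92 and 8.83 on siRNA arrays and 9.18, 9.12, 9.17 and 9.05 on NC arrays. The groups did not overlap, and the fold was -0.22 ± 0.06 (SE, limma adjusted p = 0.0103). Rpl7a fell by 0.27, with overlapping groups, and its adjusted p was 0.055 to 0.079 when any of 5 single arrays was left out. These 4 genes turned positive with the spike-in probes, and Rps2, Rps6 and Rpl7a also with median scaling, and Rps2 and Rps6 under normexp as well.

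**Figure D3:**
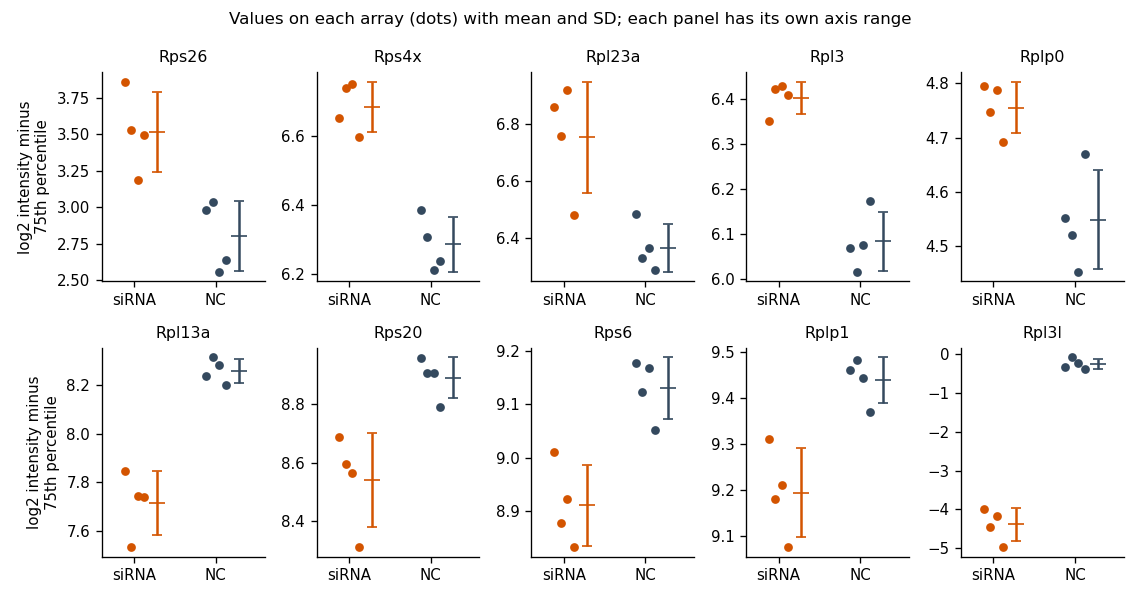
Levels (log2 intensity minus the 75th percentile of the array) of 10 members on the 4 siRNA and 4 NC arrays, each dot an array, with the mean and SD beside it and a separate axis range for each gene. The dots of the groups stand apart in every panel, except that the lowest siRNA array of Rpl23a lies at 6.48 beside an NC array.

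The stalk of the large subunit, which recruits the elongation factors, consists of Rplp0 and the acidic proteins Rplp1 and Rplp2. Its members did not move alike. Rplp0 had levels of 4.80, 4.75, 4.79 and 4.69 on siRNA arrays and 4.55, 4.52, 4.45 and 4.67 on NC arrays, a fold of 0.21 ± 0.06 (SE, limma adjusted p = 0.0162). Rplp1 had levels of 9.31, 9.18, 9.21 and 9.08 on siRNA arrays and 9.46, 9.48, 9.44 and 9.37 on NC arrays, a fold of -0.24 ± 0.06 (SE, limma adjusted p = 0.0090). Neither pair of groups overlapped, Rplp2 was not called (0.11, adjusted p = 0.170), and the call of Rplp0 was lost under cyclic loess, quantile and normexp processing. Rplp1 turned positive under median, spike-in, quantile and normexp processing. Its mean level was the highest of all members, 9.19 on siRNA and 9.44 on NC arrays. The highest non-control intensity was 188424 to 191831 on siRNA arrays and 180188 to 191975 on NC arrays. The 75th percentile, by contrast, was higher on siRNA arrays. Whether a limit at the top of the intensity range had a part in the fall of Rplp1 was not tested.

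Rpl5 and Rpl11, which together with the 5S RNA can bind and inhibit Mdm2, and Rpl23, another binder of Mdm2, showed no common change. Rpl5 was called higher at 2 of its 3 probes, with folds of 0.23 and 0.36, and its brightest probe had a fold of 0.15 (adjusted p = 0.069). At the second of these probes its levels were 6.03, 6.03, 6.05 and 5.91 on siRNA arrays and 5.73, 5.65, 5.64 and 5.56 on NC arrays. Rpl11 (0.02) and Rpl23 (-0.12) were not called.

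Several names belong to paralogs that can stand in for a subunit or to pseudogenes, and 1 of these 10 was called higher and 1 lower. The lower one was Rpl3l, the paralog of Rpl3 known from heart and skeletal muscle, and it had by far the largest difference of any member. Its probe, shown because it gave the largest difference, lies at chr10:13992401-13992460 (rn4, plus strand).
Rpl3l: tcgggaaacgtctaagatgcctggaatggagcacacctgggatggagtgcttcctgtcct
Its levels were -3.98, -4.45, -4.16 and -4.97 on siRNA arrays and -0.33, -0.08, -0.22 and -0.38 on NC arrays. On the siRNA side 1 of 4 arrays was well above background, and on the NC side 4 of 4 were. The level was 15.8-fold lower in siRNA when dimmer siRNA readings were raised to the dimmest signal well above background on their array. That limit is the lowest of any probe on the array, so the figure is not a firm lower bound. The fitted log2 fold of -4.14 (limma adjusted p = 3.6e-06) rests on siRNA signals mostly not well above background, and the probe passed the filter through the NC arrays alone, so it is given as a description. Rpl3 itself, the ubiquitous subunit, was higher by 0.32.

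The other paralogs moved little. Rpl22l1, whose mRNA is repressed by Rpl22 in mouse cells, had levels of 4.38, 4.34, 4.43 and 4.27 on siRNA arrays and 4.59, 4.55, 4.46 and 4.50 on NC arrays at one probe, where it fell by 0.18 (adjusted p = 0.0230). At its brighter probe the fold was -0.26 (adjusted p = 0.0855), and it was -0.36 and called without the fourth NC array. Rpl22 was not called (0.10). Folds of the other pairs were -0.09 for Rpl10 and 0.28 for Rpl10l, 0.13 for both Rpl39 and Rpl39l, and 0.23 for Rpl7 and -0.13 for Rpl7l1. Of these genes Rpl7 was called, and no gene was tested against its partner. Rpl36al had a fold of 0.00 beside the 0.33 of Rpl36a. Rpl30-ps10 was the name called higher, with a fold of 0.19.

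Many members share stretches with pseudogenes or paralogs, and 30 of the 131 probes matched a probe of another name over at least 18 bases at 90% identity or more, so their signals may be mixed. For 5 probes the file carries a name that differs from the symbol RefSeq now gives. No probe named Rps27l or Rps19bp1 was among the members. Rps27 was not called (0.15). Rpsa, the laminin-binding protein of the small subunit that the rule did not reach, had levels of 6.21, 6.31, 6.10 and 6.22 on siRNA arrays and 6.15, 6.14, 6.16 and 6.24 on NC arrays and was not called (0.04). Nor were Fau (-0.06), which is made as a fusion with a ubiquitin-like protein, and Rack1 (0.14), ribosomal proteins whose names also follow another pattern.

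Of the 34 names with more than 1 probe, Rpl21 and Rpl31 had probes called in both directions. Rpl21 had 7 probes. At 4 of them it was called higher, with folds of 0.21 to 0.34, and at the brightest its levels were 7.60, 7.47, 7.50 and 7.50 on siRNA arrays and 7.30, 7.24, 7.27 and 7.23 on NC arrays. Another probe had a fold of -1.42, although it overlaps one of the 4 by 19 bases. Both are shown here with the shared bases in capitals, at chr12:8718477-8718536 and chr12:8718137-8718495 of rn4, minus strand.
Rpl21, position 38: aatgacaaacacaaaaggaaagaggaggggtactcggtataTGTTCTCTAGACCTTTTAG
Rpl21, position 79: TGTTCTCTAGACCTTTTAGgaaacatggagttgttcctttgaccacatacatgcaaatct
At the second of these, the spots of 2 siRNA arrays had been marked as non-uniform by the scanner software and were left out, and the other siRNA arrays read 5.78 and 4.79, against 6.60 to 6.85 on NC arrays. That fold thus rests on 2 siRNA arrays. The remaining 2 probes came from an expressed sequence tag (EST) and gave -0.59 and -0.65.

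These EST probes were taken to read the opposite strand. In all, 5 member probes of Rpl21, Rpl37, Rps15 and Rps25 were built from ESTs and lie in the opposite orientation to the probes of the gene's RefSeq mRNA, by their sequence, by their design coordinates or by sharing a source with one that does. The design places both Rpl21 EST probes on chr4, while the RefSeq-based probes lie on chr12. One matched the reverse complement of a RefSeq-based probe at 34 of 37 bases, and the other was judged by its shared source alone. The clearest case was Rps25, for which the probes are exact reverse complements of each other over all 60 bases and share the position chr8:47375104-47375163 (rn4), on the plus and the minus strand.
Rps25, RefSeq-based probe: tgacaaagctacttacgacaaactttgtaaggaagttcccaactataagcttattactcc
Rps25, EST-based probe: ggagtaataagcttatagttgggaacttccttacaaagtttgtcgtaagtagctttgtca
The first had levels of 6.26, 6.23, 6.31 and 6.17 on siRNA arrays and 6.20, 6.12, 6.06 and 6.06 on NC arrays, a fold of 0.13 that was not called (adjusted p = 0.0628). The second had levels of 1.91, 1.83, 1.82 and 1.75 on siRNA arrays and 2.20, 2.27, 2.24 and 2.16 on NC arrays, a fold of -0.39 ± 0.05 (SE, limma adjusted p = 0.000413). On every siRNA array the opposite-strand signal was thus lower, relative to the gene's own, than on any NC array.

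The difference between these probes within an array, opposite strand minus gene, averaged -4.41 ± 0.06 on siRNA arrays and -3.89 ± 0.08 on NC arrays (SD, n = 4 each). It differed between groups by -0.52 (exact permutation test, two-sided, p = 0.0286, the smallest p that 4 against 4 arrays allow). That p-value follows from the separation of the groups already stated and is not corrected for the choice of this pair, so it adds no support. A constant scaling of the arrays cannot change the difference. Processing that depends on brightness can, and values under it are not given here. Of the 5 opposite-strand member probes, 4 were called lower and none higher, and the one not called, of Rps15, had a fold of 0.01. Without them, 39 of 126 member probes were called higher and 15 lower. Unlike the difference within an array, these counts can change under a constant scaling.

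The array also held 14 opposite-strand probes outside the members, found as reverse complements of a member probe over at least 18 bases at 90% identity or more. All 14 were kept, 10 were called lower in siRNA and none higher, and their median fold was -0.20, with a range from -0.44 to 0.28. The direction of these folds depended on the scaling. Median scaling raises all of them by 0.30 and spike-in scaling by 0.53. The median of -0.20 then turns positive under each, and with the spike-in probes the lowest fold does so too. Calls of these probes under other scalings were not counted. The background is 31.9% called lower among all kept probes. For Rps7 the gene's probe had a fold of 0.17 and the opposite-strand probe -0.44 over 44 identical bases. For Rps18 the values were 0.16 and -0.41, for Rpl15 0.21 and -0.31, and for Rpl32 0.11 and -0.28. These pairs were not tested against each other, and the source of the opposite-strand signal was not tested.

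**Figure D4:**
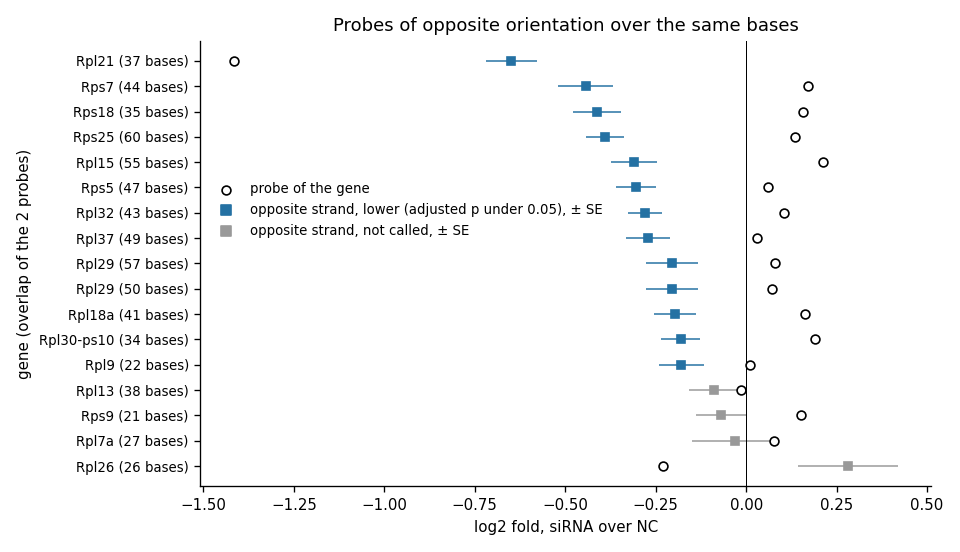
Log2 fold, siRNA over NC, of 17 pairs of a member probe (open dots) and a probe of opposite orientation over the same bases (squares with SE), with the overlap in brackets. All squares but that of Rpl26 (0.28, not called) lie below 0, and most open dots lie above 0.

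The probes of a gene also differed by their place along the transcript. For 24 RefSeq transcripts of members with at least 2 kept probes at least 60 bases apart, the fold at the last probe, nearer to the poly(A) tail, was set against that at the first in one fit over all such transcripts on the array. The last probe was lower relative to the first in 9 transcripts (37.5%) and higher in 2 (8.33%), by limma with adjustment over all 2454 transcripts. Over all of these, 8.68% were called lower and 27.1% higher, so the split of calls among members was the reverse of that over all transcripts. The difference was negative in 18 of the 24, with a median of -0.18, and negative in 36.3% of the 2430 other transcripts, with a median of 0.09. Where both probes had a mean level above 4, it was negative in 17 of 22 member transcripts and in 52 of 84 others, with 8 of the 22 and 7 of the 84 called lower. Whether members differ from equally bright transcripts in this was not tested.

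Rpl28 had the widest gap, with a fold of 0.09 at position 107 and -0.90 at position 958 of its transcript. The later probe read -2.15, -2.19, -2.15 and -2.33 on siRNA arrays and -1.24, -1.18, -1.36 and -1.44 on NC arrays. Its groups stood apart, while those of the earlier probe overlapped. Rps20 followed, with probes at positions 73 and 261, which are shown because they lie close together on a short transcript, within chr5:17120638-17120886 and chr5:17119979-17120313 of rn4, minus strand.
Rps20, position 73: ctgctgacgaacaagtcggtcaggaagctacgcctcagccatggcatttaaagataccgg
Rps20, position 261: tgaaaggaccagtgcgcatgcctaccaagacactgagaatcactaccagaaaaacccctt
The first had a fold of 0.11 and the second of -0.35, a difference of -0.46 ± 0.06 (SE, limma adjusted p = 0.0012).

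Rpl26 (0.21 and -0.23), Rpl31 (0.20 and -0.19) and Rpl7a (0.08 and -0.27) also had first probes with positive and last probes with negative folds. For Rpl31 the last probe had levels of 8.14, 8.02, 8.05 and 7.90 on siRNA arrays and 8.23, 8.24, 8.23 and 8.16 on NC arrays, a fall of 0.19 that lost its call (adjusted p 0.054 to 0.061) when any of 4 single arrays was left out and turned positive under median, spike-in and normexp processing. Rps2, Rpl19, Rpl35a and Rpl29 completed the 9. The exceptions were Rps10, higher by 0.23 at the last probe, and Rpl15, whose probe at position 1863 had a fold of 0.62 against 0.21 at position 223. At that later probe Rpl15 had levels of 1.12, 1.32, 1.42 and 1.30 on siRNA arrays and 0.80, 0.65, 0.61 and 0.63 on NC arrays.

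Base composition moved with position. The last probe had fewer G and C bases than the first in 19 of the 24 transcripts and in 8 of the 9 called lower. Over all member probes, the 33 with at most 24 G or C bases of 60 had a median fold of -0.09, with 7 called higher (21.2%) and 10 lower (30.3%), and the 98 others had a median of 0.10, with 32 called higher (32.7%) and 9 lower (9.18%). Over all kept probes the class poor in G and C had a median of -0.10, with 26.2% called higher and 36.6% lower, and the other class a median of 0.02, with 32.2% higher and 28.6% lower. Brightness moved with position as well. In the 9 transcripts called lower, the last probe was brighter than the first in all but Rpl28. For Rps20 the mean NC levels were 7.15 at the first and 8.89 at the last probe. In Rps10 (6.04 and 4.58) and Rpl15 (7.57 and 0.67), both called higher, the last probe was dimmer. The parts of base composition and brightness in the difference along the transcript were not tested. Under normexp 2 transcripts were called lower at the last probe and none higher. With 1 array left out at a time the calls lower at the last probe ran from 7 to 13 and those higher from 0 to 3.

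**Figure D5:**
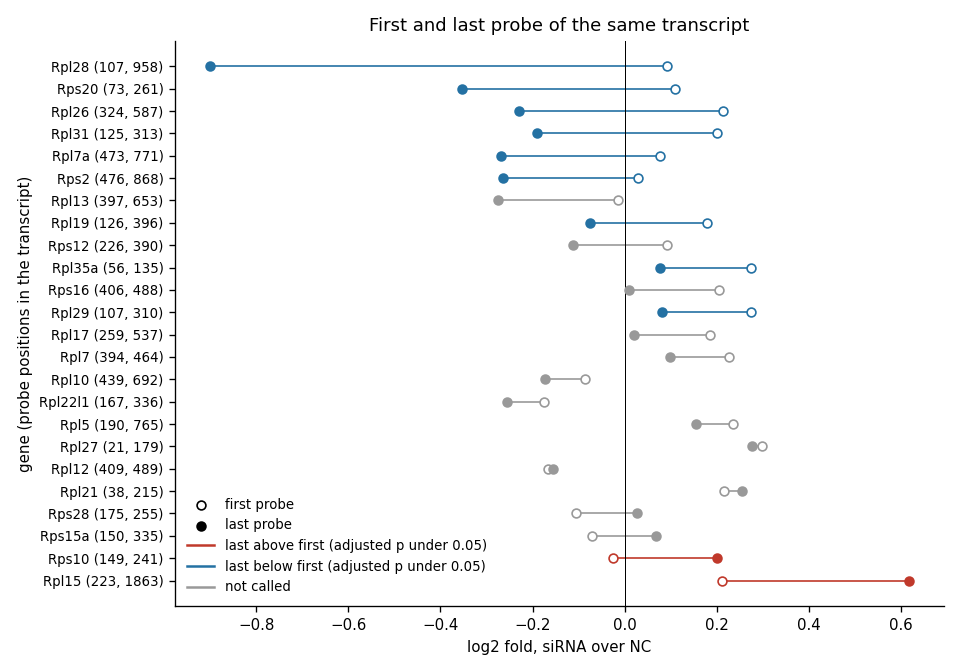
Log2 fold, siRNA over NC, at the first probe (open dots) and the last probe (filled dots) of 24 transcripts of ribosomal proteins, with the positions of the probes in brackets and the line coloured where the difference was called. The filled dot lies to the left of the open one in 18 of the 24 rows, widest for Rpl28 (0.09 and -0.90).

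Many of the genes carry the pyrimidine run at the annotated start of their mRNAs, which the rule did not use. RefSeq promoters (GRCr8) were at hand for 62 starts of 61 subunit genes, and in 24 of them (38.7%) the annotated first base was a C followed by at least 4 bases that are each C or T, read on the gene's strand. Of all 33469 promoters 2.63% had this, of the mitochondrial ribosomal proteins 3.08%, of the ribosome biogenesis genes 5.56% and of the 7 promoters of paralogs and pseudogenes none. The starts of 4 members are shown from 10 bases before the annotated first base to 20 bases from it, with the run of pyrimidines in capitals.
Rpl31, chr9:49143101-49143130, plus strand: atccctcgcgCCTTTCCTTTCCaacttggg
Rplp1, chr8:71290853-71290882, minus strand: cgcatgtgatCCTTTCCTCagctgccgcca
Rps7, chr6:50999426-50999455, minus strand: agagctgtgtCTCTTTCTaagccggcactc
Rps26, chr7:1643385-1643414, minus strand: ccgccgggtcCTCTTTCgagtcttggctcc
Rpl31 and Rplp1 were lower in siRNA at their brightest probes, Rps26 was higher, and Rps7 was not called (0.17). Of the 23 subunit genes measured with such a start, 5 were called higher and 2 lower, with a median fold of 0.08, and of the 37 without it at the annotated start, 13 were called higher and 4 lower, with a median of 0.07. Among all genes 36.2% were called higher and 28.8% lower. An annotated start can miss the true first base, and other listed TOP transcripts of the translation machinery had no such run at any of their 17 annotated starts.

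Those other TOP transcripts, which encode elongation and initiation factors and their partners, were measured for 21 genes, of which 6 were called higher, 2 lower and 13 neither, with a median of 0.13. The share called higher was 28.6%, below the 36.2% of all genes, and the share called lower was 9.52%, against 28.8%. Eef1d (0.31), Eif3h (0.39) and Npm1 (0.23) were higher. Eif4a2 (-0.27) and Pabpc1 (-0.14), the poly(A)-binding protein, were lower, but both turned positive under median, spike-in and normexp processing. Pabpc1 lost its call when any 1 of 7 single arrays was left out, and 11 genes of this list were called higher without the fourth siRNA array.

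Factors that assemble ribosomes were more often called lower than higher. Of 76 measured genes of ribosome biogenesis 12 were called higher and 32 lower (42.1% against 28.8% of all genes), with a median of -0.09, although with median scaling 42 were higher and 8 lower and with spike-in scaling 63 were higher and 2 lower. Ddx52, a helicase of small-subunit assembly, had levels of 0.75, 0.96, 0.66 and 0.59 on siRNA arrays and 1.91, 1.88, 1.87 and 1.80 on NC arrays, a fold of -1.13. Mdn1, the large ATPase that remodels the pre-60S particle, fell by 0.74, and Taf1c, a subunit of the RNA polymerase I selectivity factor, by 0.64. Nhp2, of the H/ACA particles that modify ribosomal RNA, was higher by 0.57, Rrp1b by 0.56 and Ltv1, an assembly factor of the small subunit, by 0.43.

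A list of the mTOR pathway and other genes of translational control, to which Myc was added, held 19 genes. Of these, 17 were on the array and 16 were measured. Of the 16, 5 were called higher (31.3%) and 4 lower (25%), shares near the 36.2% and 28.8% of all genes. Myc, which drives ribosome production, had levels of 2.30, 1.92, 2.17 and 1.40 on siRNA arrays and 3.68, 3.87, 3.96 and 3.53 on NC arrays, a fold of -1.81 ± 0.20 (SE). Sesn2, an inhibitor of mTORC1, fell by 1.11. Tsc2, another inhibitor, was lower by 0.33 but higher by 0.21 with spike-in scaling. Eef2k, the kinase that slows elongation, was higher by 1.10, Ddit4, an inhibitor of mTORC1, by 0.49 and Eif4ebp2, which blocks the cap-binding protein, by 0.48.

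The mitochondrial ribosome, whose proteins are also nuclear-encoded, was mostly called higher. Of 68 genes, 43 were called higher in siRNA and 3 lower, with a median fold of 0.25 against 0.07 for the 86 cytosolic names. That is 63.2% higher and 4.41% lower, against 36.2% and 28.8% of all genes, but under normexp 13 were called higher, and with spike-in scaling 65. Mrpl14 (0.96), Mrpl48 (0.62) and Mrps36 (0.54) were higher, and Mrpl40 (-2.58), Mrps18b (-0.50) and Mrpl2 (-0.49) were lower, Mrps18b and Mrpl2 being slightly positive with spike-in scaling. The difference between the 2 sets was not tested.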

How the data were processed

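Total RNA of 8 BRL-3A samples was labelled with Cy3 and hybridised to 1-colour Agilent arrays, per the labels' protocols. The deposited files hold processed spot intensities from Agilent Feature Extraction 12.0.3.1, background-subtracted and detrended within each array per the file headers, with no scaling between arrays. The submitters' processing notes name limma with no role given. The authors' deposited series table held no member and was not used.

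Here, intensities were taken to log2 and the 75th percentile of each array was subtracted. Control spots were dropped, as were 129 to 174 spots an array that the scanner software had marked as outliers. Saturation marked no spot. Probes well above background on at least 3 of 4 arrays of a group were kept. The siRNA and NC arrays were compared in limma 3.58.1 (R 4.3.3, two-sided, Benjamini-Hochberg over 24853 probes), a fit that was also tested on simulated data. Genes were named through RefSeq (GRCr8) for 112 member probes by accession. Probe coordinates are those of the design on rn4. The members, the lists and the position and strand comparisons were chosen with earlier results of these data known. Genes named singly are the 8 highest and 8 lowest called members, the stalk, Mdm2 binders, paralog pairs, names called both ways, and in each other list up to 3 called genes per direction with the smallest adjusted p. A few genes that this choice covers are not reported here. Other genes were named after seeing their values. The labels do not say whether arrays stand for separate cultures, so the spread behind the p-values may be technical, and 4 arrays a group limit the precision. Alternatives were other scalings, filters, a replicate block, left-out arrays and the mean of all probes of a gene.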

Additional observations from a re-analysis of the deposited data

Results flagged for a closer look

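Among the genes named singly, 6 values on single arrays stood far from the other 3 of their group, with a gap to the nearest array that exceeded Dixon's critical value, which chance alone passes in about 1 in 20 groups. In all, 112 groups were looked at. Rps21 read 7.95 on the first NC array, against 7.60 on the next highest. Rpl39 read 8.12 on the fourth siRNA array, against 8.24 on the next lowest. Rpl31 read 8.16 on the fourth NC array, against 8.23 on the next lowest. Eif4a2 read 4.79 on the fourth siRNA array, against 4.90 on the next lowest. Mrps18b read 0.087 on the fourth siRNA array, against -0.25 on the next highest, and 0.25 on the third NC array, against 0.33 on the next lowest.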

How the results depend on the processing

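As reported, 39 member probes were called higher and 19 lower, with a median fold of 0.069. With the 75th percentile taken over probes bright on all arrays, 23 were higher and 36 lower (median -0.0165), with 7 large-subunit and 5 small-subunit genes higher, 9 and 7 lower, 3 other TOP transcripts higher and 5 mitochondrial ribosomal proteins lower. Under cyclic loess 23 member probes were higher and 38 lower (median -0.0357), with 7 large-subunit genes higher and 11 lower, 8 small-subunit genes lower, 2 other TOP transcripts higher and 6 mitochondrial ribosomal proteins lower. Under quantile normalization 2 small-subunit genes and 5 mitochondrial ribosomal proteins were lower.

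Scaling to the array median gave 100 member probes higher and 6 lower (median 0.371). By list, higher and lower, it gave 33 and 1 large-subunit genes, 26 and 0 small-subunit genes, 42 and 8 biogenesis genes, 19 and 0 other TOP transcripts, and 11 and 2 genes of the mTOR list, with 1 mitochondrial ribosomal protein lower. Spike-in scaling gave 116 member probes higher and 3 lower (median 0.601), and by list 40 and 0, 29 and 0, 63 and 2, 21 and 0, and 13 and 2, with 65 mitochondrial ribosomal proteins higher and 1 lower. Normexp gave 2 member probes higher and 5 lower (median 0.363), and by list 0 and 0, 1 and 0, 3 and 2, 0 and 0, and 2 and 2, with 13 mitochondrial ribosomal proteins higher. It called 2 member transcripts lower at the last probe and 0 higher. Without the filter on dim probes 9 large-subunit genes were higher and 1 lower, and 1 other TOP transcript was lower. Requiring all 8 arrays above background, and leaving out opposite-strand probes, probes with a spot left out or paralog names (the last 3 chosen after seeing the data), kept every member count within 1.5 times.

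With 1 array left out at a time, 9 to 18 large-subunit genes were higher and 1 to 6 lower, 5 to 12 small-subunit genes were higher, 3 to 11 other TOP transcripts were higher and 1 to 2 lower, and 27 to 52 member probes were higher. Member transcripts called higher at the last probe ran from 0 to 3 (these alternatives were also added after seeing the data). Arrays of the same number did not pair: deviations correlated at 0.013, 0.030, -0.032 and 0.209. With the replicate number as a block 37 member probes were higher and 20 lower, 1 other TOP transcript was lower, 6 member transcripts were lower at the last probe and 0 higher, and 5 of 56 single-gene calls changed.

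Of the genes reported here, folds that turned from negative to positive were, under spike-in scaling, Rps20 0.18, Rpl7a 0.26, Rps2 0.27, Rplp1 0.29, Rps6 0.31, Rpl23 0.42, Rpl10 0.45, Rpl7l1 0.40, Rpl31 0.34, Eif4a2 0.26, Pabpc1 0.40, Tsc2 0.21, Mrps18b 0.033 and Mrpl2 0.044. Under median scaling they were Rpl7a 0.033, Rps2 0.037, Rplp1 0.057, Rps6 0.083, Rpl23 0.19, Rpl10 0.22, Rpl7l1 0.17, Rpl31 0.11, Eif4a2 0.032 and Pabpc1 0.16. Under normexp they were Rps2 0.055, Rplp1 0.088, Rps6 0.13, Rpl31 0.17, Eif4a2 0.070 and Pabpc1 0.15, and under quantile normalization Rplp1 0.018. The mean of all 7 Rpl21 probes was -0.29, since it takes in the probe with missing spots and both opposite-strand probes. For the other reversals the cause was not tested. Signal over background limits Rpl3l, which was well above background on 1 siRNA array, and folds under about 0.5 can lie within the shift between scalings.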
